A study of Mus musculus with 6 samples.

Results

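Adrenergic receptors are the cell-surface receptors for noradrenaline and adrenaline, and 6 of their genes were followed here in the adult mouse prefrontal cortex: Adra1a, Adra1b and Adra1d of the alpha1 class, Adra2a and Adra2c of the alpha2 class, and Adrb1 of the beta class. They were taken by name from a table of 18160 genes, all 6 were found there, and all 6 were among the 15151 genes whose mean reached 10 normalized counts and which were tested. The tissue was adult prefrontal cortex, taken at postnatal day 56 from mice of the C57BL/6J strain. There were 3 samples heterozygous for a mutation of Cyfip2 (het) and 3 wild-type (WT) samples, and the labels name neither the kind of mutation nor a treatment. CYFIP2 is a subunit of the WAVE complex, which drives branched actin assembly, and the comparison sets gene expression in the cortex of these mutants against that of WT. Whether each sample is a different animal is not stated in the labels, so p-values here reflect the spread between samples, which may be technical.

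Noradrenaline reaches the cortex through axons of the locus coeruleus, a brainstem nucleus, so the cells that make it lie outside the tissue sampled. Alpha1 receptors couple mainly to Gq proteins and phospholipase C, alpha2 receptors to Gi/o proteins that lower cAMP, and beta receptors to Gs proteins that raise cAMP. In prefrontal cortex, alpha2A receptors are known for supporting working memory at moderate noradrenaline release, while alpha1 and beta1 receptors are engaged at higher release, as in stress.

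How far reads of the 6 genes could be confused was checked on their coding sequences. Among the 15 pairs of coding sequences, aligned bases were 59.0% to 72.8% identical, and the longest run of identical bases was 10 to 26 bases. The longest of all was shared by Adra2a and Adra2c, and the longest run within the alpha1 class, at 20 bases, was shared by Adra1a and Adra1d (the pair Adra1b and Adra1d also had a run of 20 bases). The first of these pairs is shown because it holds the longest run of all, and the pair of Adra1a and Adra1d as an example from the alpha1 class. Each is printed with 15 coding bases on either side (GENCODE M21, GRCm38, read along the coding strand), with the shared run in capitals.
Adra2a, chr19:54046662-54046717, plus strand: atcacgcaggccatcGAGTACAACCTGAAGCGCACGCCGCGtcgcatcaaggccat
Adra2c, chr5:35280342-35280397, plus strand: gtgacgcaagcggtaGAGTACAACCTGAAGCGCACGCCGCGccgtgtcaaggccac
Adra1a, chr14:66638340-66638389, plus strand: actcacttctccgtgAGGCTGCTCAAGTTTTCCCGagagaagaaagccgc
Adra1d, chr2:131561147-131561196, minus strand: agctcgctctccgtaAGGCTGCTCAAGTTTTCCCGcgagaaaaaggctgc
The sources used here give no read length, so whether reads could lie wholly within such a run is not known. The 5′ end of Adra1d overlaps an exon of the antisense gene Gm14285 on the opposite strand, which was not analysed here. The kit marks strand, but the strand setting of the quantification is not stated in those sources. No exon of the other 5 genes overlaps another annotated gene.

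Cyfip2 itself checks the labels. It had 28356, 28578 and 29567 normalized counts in het samples 1, 2 and 3, against 45454, 43174 and 45627 in WT samples 1, 2 and 3. All 3 het samples lay below all 3 WT samples, and limma gave a log2 fold change of -0.63 ± 0.05 (SE, adjusted p = 0.0027). That call was lost by limma without the trend in expression level (adjusted p = 0.15). Totals of the table were 36.4 to 37.1 M normalized counts per sample (M for 1e+06). From the spacing of the lowest values, depth was estimated at 27.1 to 47.9 M reads. Markers of cortical excitatory neurons were present at widely differing levels. Highest of the 10 was Slc17a7, the vesicular glutamate transporter of these cells, at 49783 ± 1882 normalized counts in het and 52578 ± 2202 in WT samples (SD, n = 3 each). Foxp2 was the lowest, at 343 ± 31.3 in het and 334 ± 46.4 in WT samples. None of the 10 passed an adjusted p of 0.05 by limma, with 5 above and 5 below WT. In 2 of the 10 the groups did not overlap, against 10.5% of all genes tested. Markers most specific to noradrenergic neurons of the locus coeruleus were low. Slc6a2, the noradrenaline transporter, stayed at or under 3 implied reads in all 6 samples, and Dbh, which makes noradrenaline from dopamine, had 6.35 to 15.6 normalized counts in het samples and 6.86 to 11.3 in WT samples.

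None of the 6 receptor genes differed between genotypes past an adjusted p of 0.05 by limma. The count is 0 of 6 beside a background of 0.0132% of all genes tested, 2 genes of 15151. None of the 6 had an unadjusted p under 0.05 either, against 5.07% of all genes tested, and in none of the 6 were the het and WT samples free of overlap, against 10.5% of all genes tested. By sign, 4 receptors were below WT and 2 above, with a median log2 fold change of -0.06 where the median of all genes tested was 0.0020. In bulk tissue, fewer cells of a type and less RNA per cell cannot be told apart.

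**Figure D1:**
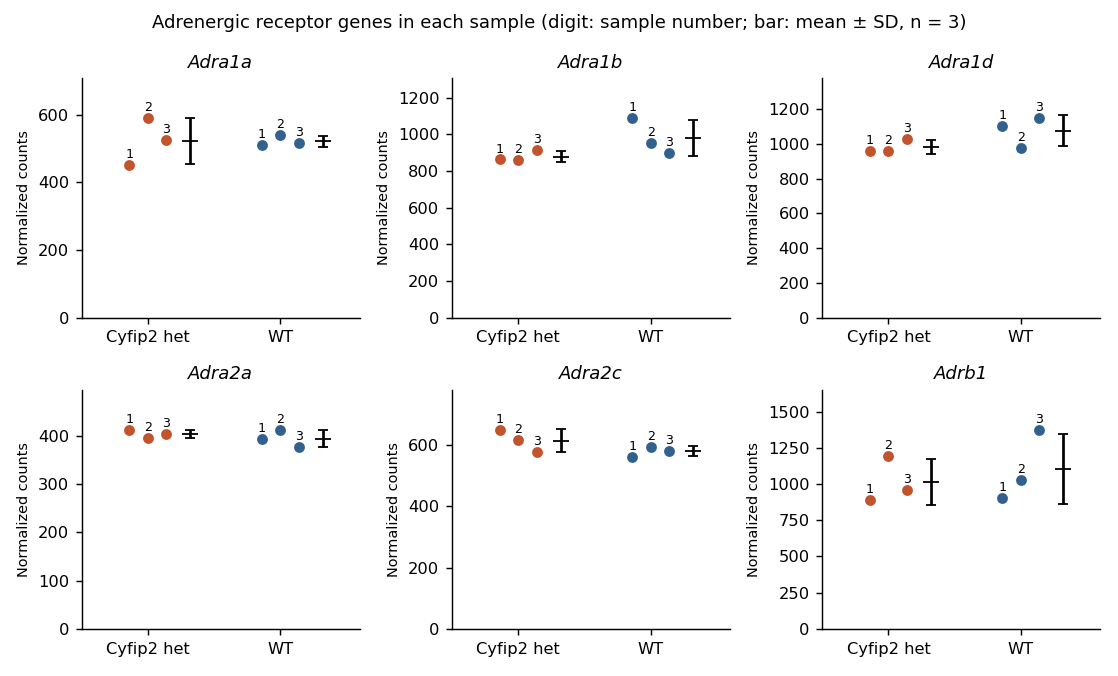
Normalized counts (vertical axes, starting at 0) of the 6 adrenergic receptor genes in the 3 Cyfip2 het samples and the 3 WT samples; the digit is the sample number and the bars are mean ± SD (n = 3). In every panel the genotypes overlap, and the widest scatter is that of Adrb1, at 891 to 1191 in het and 906 to 1375 in WT samples.

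Among the alpha1 receptors, Adra1b showed the largest fold change of the 6 and still overlapped. Adra1b (ENSMUSG00000050541) lies on the minus strand of chromosome 11, from 43774606 to 43901210 (GRCm38), 2.29 Mb from Cyfip2 on the same chromosome. It had 863, 858 and 914 normalized counts in het samples 1, 2 and 3, against 1088, 956 and 896 in WT samples 1, 2 and 3. Het samples 1 and 2 lay below all WT samples, while het sample 3 lay above WT sample 3. The means were 878 ± 31.2 in het and 980 ± 98.0 in WT samples (SD, n = 3 each). By limma the log2 fold change was -0.15 (95% interval -0.34 to 0.03, adjusted p = 0.95).

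Adra1d, an alpha1 receptor gene on the minus strand of chromosome 2 (131545850 to 131562283), had 960, 962 and 1031 normalized counts in het samples, against 1103, 978 and 1148 in WT samples. Het samples 1 and 2 lay below all WT samples and het sample 3 above WT sample 2. By limma the log2 fold change was -0.13 (95% interval -0.30 to 0.05, adjusted p = 0.95). Adra1a, on the plus strand of chromosome 14 (66635251 to 66771168), had 453, 590 and 527 normalized counts in het samples, against 511, 540 and 516 in WT samples. Its het samples held both the lowest and the highest value of all 6 samples, and its means were 523 ± 68.7 in het and 522 ± 15.9 in WT samples (SD, n = 3 each). By limma the log2 fold change was -0.0057 (95% interval -0.23 to 0.22). Its sign turned without het sample 1 (0.09) and without WT sample 2 (0.02).

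The alpha2 receptors varied least. Adra2a, the gene of the alpha2A receptor, lies on the plus strand of chromosome 19 (54044151 to 54048982). It had 413, 395 and 405 normalized counts in het samples, against 393, 412 and 377 in WT samples. The values interleave, with means of 404 ± 8.82 in het and 394 ± 17.7 in WT samples (SD, n = 3 each). The log2 fold change was 0.04, with a 95% interval of -0.14 to 0.22, so that levels from 90.5% to 117% of WT lay within it. Adra2c, the gene of the alpha2C receptor, is a gene of 1 exon on the plus strand of chromosome 5 (35278319 to 35281763). It had 650, 617 and 577 normalized counts in het samples, against 562, 595 and 581 in WT samples. Het samples 1 and 2 lay above all WT samples and het sample 3 lay within the WT range. By limma the log2 fold change was 0.08 (95% interval -0.09 to 0.26, adjusted p = 0.97).

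Adrb1, the gene of the beta1 receptor, varied most between samples of 1 genotype. It lies on the plus strand of chromosome 19 (56722199 to 56733113), on the same chromosome as Adra2a. It had 891, 1191 and 961 normalized counts in het samples 1, 2 and 3, against 906, 1027 and 1375 in WT samples 1, 2 and 3. Het sample 2 and WT sample 3 were high, and het sample 1 and WT sample 1 were low, so the lowest values of the 2 genotypes nearly coincided. The means were 1014 ± 157 in het and 1103 ± 244 in WT samples (SD, n = 3 each). By limma the log2 fold change was -0.11 (95% interval -0.45 to 0.23, adjusted p = 0.99). Without WT sample 3 it was 0.06, so that the sign rests on that sample.

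**Figure D2:**
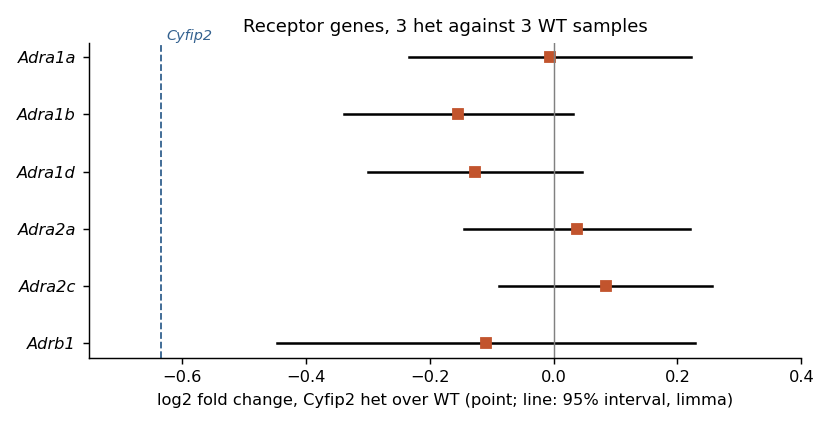
Log2 fold change of each receptor gene, Cyfip2 het over WT (squares), with its 95% interval by limma (lines, 3 samples against 3); the dashed line marks Cyfip2 at -0.63. All 6 intervals include 0, and the widest is that of Adrb1, from -0.45 to 0.23.

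The spread between samples of 1 genotype can be set against counting error. For Adrb1 the coefficient of variation (SD as a percentage of the mean) was 15.4% in het and 22.1% in WT samples, where counting the implied reads alone would give 3.25% and 2.96%. For Adra2a it was 2.18% in het and 4.50% in WT samples, where counting alone would give 5.12% and 5.01%. Among the 7184 genes with a mean of 200 to 2000 normalized counts, 96.6% had a smaller SD within genotypes than Adrb1, 73.7% a smaller one than Adra1a, and 9.44% a smaller one than Adra2a. The values for Adra1b, Adra1d and Adra2c were 53.4%, 43.9% and 20.6%. The 2 alpha2 genes thus had the narrowest spread of the 6 and Adrb1 the widest.

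The samples in which Adrb1 was high were also those in which immediate early genes were high. These genes are switched on within minutes by neuronal activity and by cAMP signalling. As a log2 deviation from the mean of the 6 samples, Adrb1 stood at -0.23, 0.19 and -0.12 in het samples 1, 2 and 3, against -0.21, -0.03 and 0.40 in WT samples 1, 2 and 3. The mean of the 16 immediate early genes, all 16 of them tested, stood at -0.09, 0.21 and -0.16 in het samples, against -0.44, 0.08 and 0.40 in WT samples. Of the 16 genes, 13 were highest in het sample 2 among het samples and in WT sample 3 among WT samples, as Adrb1 was, compared with 10.4% of all genes tested. Arc, which encodes a postsynaptic protein that promotes AMPA receptor endocytosis, had 15493, 21770 and 15404 normalized counts in het samples, against 15316, 26798 and 30590 in WT samples. Nr4a3, a nuclear receptor gene, had 1918, 1758 and 1659 in het samples, against 968, 1540 and 2111 in WT samples. Unlike Adrb1, Nr4a3 was highest in sample 1 among the het samples. The pattern was set by Adrb1 itself, and the early genes share inducing signals, so the 13 do not count as separate matches. At the low end the likeness was looser. Adrb1 was lowest in het sample 1 (-0.23), and the early gene mean in WT sample 1 (-0.44). This likeness was seen after the values were known, and the part of the early genes in the spread of Adrb1 was not tested. None of the 16 passed the threshold between genotypes, with 6 above and 10 below WT and a median log2 fold change of -0.04. That median lay between -0.26 without WT sample 1 and 0.17 without WT sample 3.

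**Figure D3:**
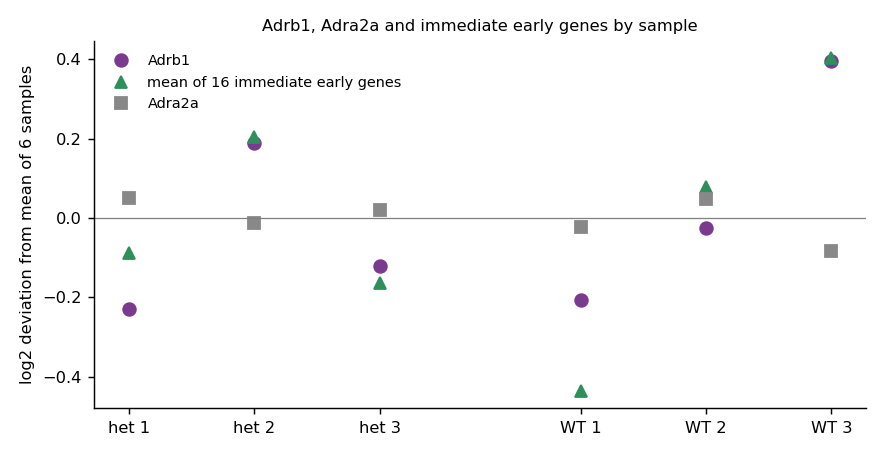
Log2 deviation from the mean of the 6 samples (vertical axis) for Adrb1 (circles), the mean of 16 immediate early genes (triangles) and Adra2a (squares), in each het and WT sample. Adrb1 and the early genes both peak in het sample 2 (0.19 and 0.21) and in WT sample 3 (0.40 and 0.40), while Adra2a stays between -0.08 and 0.05.

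The genes whose pattern over the 6 samples was most like that of each receptor were found by the root-mean-square difference of log2 deviations, among 13289 other genes with a mean of at least 50. A value of 0 would mean the same pattern. For Adrb1 they were Elk4, a transcription factor gene, at 0.038, and Zfp36l2, an RNA-binding protein gene, at 0.063, where Adrb1 itself departed from its own mean by 0.22. For Adra1a they were mt-Co2, a mitochondrially encoded subunit of cytochrome oxidase, at 0.0086, and Ighm at 0.015. For Adra1b they were Adat2 at 0.026 and Sema3c at 0.029, and for Adra1d Elavl4 and Tmem56 at 0.017 each. For Adra2a, Mvb12b stood at 0.015, and for Adra2c they were D10Jhu81e at 0.0080 and Pea15a at 0.011. With only 6 samples and so many genes, close matches arise for any gene. No receptor was among the 2 nearest genes of another. The closest pair of receptors was Adra2a and Adra2c at 0.061, which placed Adra2a in rank 951 among the genes compared with Adra2c.

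Levels were compared between receptors only per length, as normalized counts per kb of all annotated exons of a gene merged. Adra1d stood highest, at 518 ± 21.3 per kb in het and 567 ± 46.5 in WT samples (SD, n = 3 each). Adrb1 followed at 300 ± 46.3 in het and 326 ± 72.1 in WT samples, and Adra1b at 260 ± 9.21 in het and 290 ± 29.0 in WT samples. Adra2c was at 178 ± 10.6 in het and 168 ± 4.81 in WT samples, and Adra2a at 83.7 ± 1.83 in het and 81.6 ± 3.67 in WT samples. Adra1a came last at 59.9 ± 7.87 in het and 59.8 ± 1.82 in WT samples. Adrb1 and Adra1b did not differ beyond their spread: Adrb1 was the higher of the pair in 3 of 3 het and 2 of 3 WT samples, and their ranges overlapped. The ranges of all other neighbours in this order lay apart over the 6 samples. Among all genes tested, ordered by the same measure, Adra1d exceeded 79.1% and Adra1a 28.2%.

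The lowest places in that order depend on which length is used. The exons of Adra1a merge to 8728 bases over 6 transcripts, 1 of them a retained-intron form, while its longest single transcript has 4282 bases. With the longest transcript as the length, Adra1a stood at 122 per kb in het and 122 in WT samples, above Adra2a at 83.7 in het and 81.6 in WT samples. The same exchange was seen with the median length of the protein-coding transcripts. Under all 3 lengths Adra1d was first, Adrb1 and Adra1b came next, and Adra2c stood below them and above Adra1a and Adra2a. Adra1d and Adra2c have 1 annotated transcript each, of 1899 and 3445 bases, so their levels could not change with the length used. Standing among all genes tested did change. Adra1d exceeded 79.1% of them with merged exons, 72.4% with the longest transcript and 60.9% with the median coding transcript. For Adra1a these values were 28.2%, 35.9% and 30.9%. Of the 1899 bases of Adra1d, 1686 are coding, and whether its annotation is complete was not tested.

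**Figure D4:**
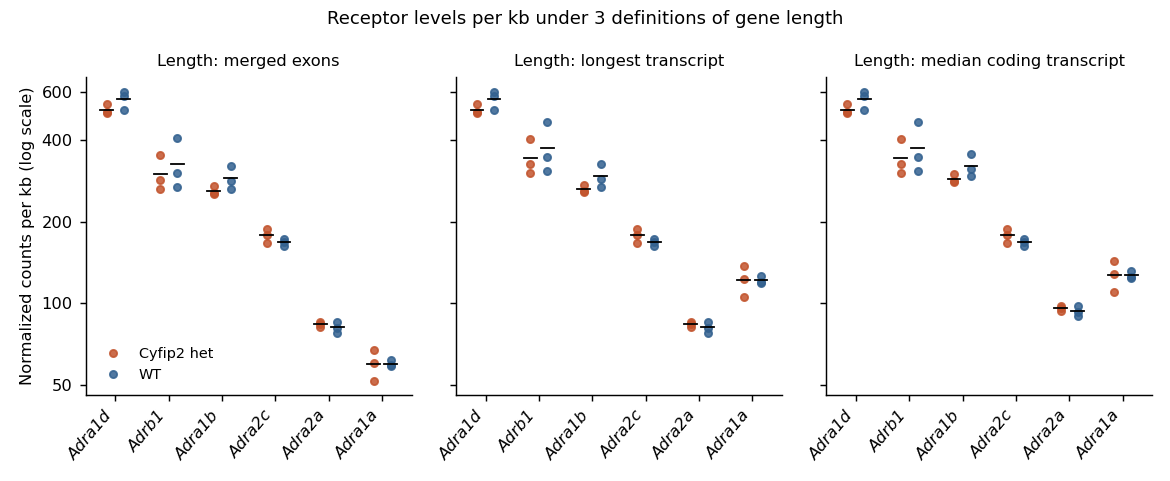
Normalized counts per kb (log scale) of the 6 receptor genes in Cyfip2 het and WT samples, with gene length taken in 3 ways; points are samples and dashes are means of 3. Adra1d is highest in all 3 panels, at 518 in het and 567 in WT samples, and Adra1a and Adra2a change places with the length used.

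Summed over the 6 genes per kb of merged exons, the alpha1 class held 59.9% ± 2.29 in het and 61.5% ± 3.38 in WT samples (SD, n = 3 each). The beta class, which is Adrb1 alone here, held 21.4% ± 2.68 in het and 21.8% ± 3.78 in WT samples. The alpha2 class held 20.3%, 18.1% and 17.8% in het samples 1, 2 and 3, against 16.6%, 18.2% and 15.6% in WT samples 1, 2 and 3. The genotypes overlapped in each class.

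The wider receptor family and the genes that supply and remove noradrenaline were examined next. Adra2b, the third alpha2 receptor gene, was at 1.13 to 3.13 normalized counts in het and 2.28 to 4.09 in WT samples, under the level for a test. Adrb3, the beta3 receptor gene, was at 32.6, 53.9 and 23.4 in het samples, against 28.9, 43.8 and 45.3 in WT samples. Of 5 further amine receptor genes tested (Adrb3 and 4 dopamine receptor genes), none passed the threshold, with 2 above and 3 below WT and a median log2 fold change of -0.16. That median was 0.02 without het sample 3 and -0.02 without WT sample 2. Drd5 and Drd2, the dopamine receptor genes with the smallest p among them, were at log2 fold changes of -0.30 ± 0.21 and -0.36 ± 0.36 (SE). The value of Drd2 was -0.02 without WT sample 2 and -0.63 without het sample 3, and that of Drd5 ran from -0.42 to -0.18 over the samples left out.

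Of 17 genes for noradrenaline synthesis, storage, uptake and breakdown, 11 were tested and none passed in either direction, with 7 above and 4 below WT and a median log2 fold change of 0.10. That median was 0.16 without WT sample 2. In 3 of the 11 the groups did not overlap, against 10.5% of all genes tested. The mean log2 deviation of the 11 was 0.029 to 0.11 in het and -0.12 to -0.0086 in WT samples, without overlap, and was not tested. The synthesis genes were low. Th, the rate-limiting enzyme of catecholamine synthesis, had 57.2, 66.4 and 58.2 normalized counts in het samples, against 50.9, 48.6 and 52.9 in WT samples. All 3 het values lay above the WT values, but the log2 fold change of 0.25 ± 0.17 (SE) did not pass (adjusted p = 0.95 by limma). Ddc, the decarboxylase that follows Th, was at 135 ± 14.7 in het and 112 ± 36.0 in WT samples (SD, n = 3 each).

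The breakdown genes came next. Maob, a monoamine oxidase gene and the member with the smallest p, had 848, 809 and 740 normalized counts in het samples, against 752, 704 and 676 in WT samples. Here limma gave 0.17 ± 0.08 (log2, SE; adjusted p = 0.95). Maoa, the other monoamine oxidase gene, was at 1176 ± 25.7 in het and 1108 ± 26.1 in WT samples (SD, n = 3 each) without overlap, at a log2 fold change of 0.09 ± 0.06 (SE). Aldh2 and Akr1b3, which act on the aldehydes formed by monoamine oxidase, were at log2 fold changes of 0.10 ± 0.08 and -0.09 ± 0.06 (SE). Of the low-affinity uptake transporters, Slc22a2 was at 36.4, 59.6 and 34.4 in het samples, against 30.4, 28.6 and 34.1 in WT samples. Its groups did not overlap, with het sample 2 standing high, and it did not pass, at 0.43 ± 0.25 (log2, SE). Slc22a3 was at 0.18 ± 0.27 (SE), and at 0.0024 without WT sample 3 and 0.35 without WT sample 1. Slc29a4 was at -0.07 ± 0.19 (SE), and Cyb561, a cytochrome of secretory vesicles, at -0.04 ± 0.06 (SE).

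Downstream of the receptors, no gene of the 4 signalling lists passed the threshold. Of 21 tested genes of the Gq pathway, 9 were above and 12 below WT, with a median log2 fold change of -0.01. Plcb1, a phospholipase C that Gq activates, was at -0.12 ± 0.07 (SE), and Prkce, a protein kinase C, at -0.09 ± 0.06 (SE). Of 21 tested genes of the Gi/o pathway, 11 were above and 10 below WT, with a median of 0.0094 whose sign turned with the sample left out (-0.04 to 0.04). Gnb4, a G protein beta subunit, was at 0.22 ± 0.10 (SE), and at 0.11 without WT sample 3 and 0.33 without WT sample 1. Cacna1b, the N-type calcium channel that Gi/o proteins inhibit, was at -0.15 ± 0.07 (SE).

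Of 30 tested genes of the Gs and cAMP pathway, 15 were above and 15 below WT, with a median of 0.00022 (-0.03 to 0.01 over the samples left out). Ppp1r1b, which encodes the protein phosphatase inhibitor DARPP-32, had 2247, 2587 and 2443 normalized counts in het samples, against 2982, 3305 and 2927 in WT samples. Its groups did not overlap, yet it did not pass, with a log2 fold change of -0.34 ± 0.07 (SE, adjusted p = 0.67 by limma). It was named for having the smallest p of its list, and 10.5% of all genes tested had groups without overlap. DARPP-32 is most abundant in striatal neurons, and of 10 striatal markers, 7 were below WT and 3 (Drd1, Rgs9 and Tac1) above. Their summed normalized counts, to which Scn4b, Rasd2 and Pde10a add most, were 13397 to 14337 in het and 14872 to 17057 in WT samples. With each marker weighted equally, as a mean log2 deviation, the genotypes overlapped, at -0.15, -0.08 and 0.04 in het samples, against 0.07, 0.26 and -0.13 in WT samples. The sum of 10 cortical excitatory markers was 69224 to 74102 in het and 74126 to 78221 in WT samples, so the genotypes nearly met. Slc17a7 adds most to that sum, at 49783 ± 1882 in het and 52578 ± 2202 in WT samples (SD, n = 3 each), and itself overlapped. The mean log2 deviation of these 10 markers overlapped too, at -0.05 to 0.011 in het and 0.0087 to 0.049 in WT samples. The part of neighbouring striatal tissue in the Ppp1r1b values was not tested. Rapgef4, a cAMP-activated exchange factor, was at 0.10 ± 0.05 (SE).

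The next list held 23 genes for receptor desensitization and trafficking and for RGS proteins (regulators of G protein signalling), all 23 of them tested. Of these, 7 were above and 16 below WT, with a median log2 fold change of -0.04. Their mean log2 deviation was -0.039 to -0.013 in het and 0.010 to 0.039 in WT samples, without overlap, and was not tested. By this measure the genotypes overlapped in the other pathway lists, except that of noradrenaline handling. Rgs10, which speeds the shut-off of Gi proteins, had 424, 503 and 474 in het samples, against 564, 574 and 594 in WT samples. Here too the groups did not overlap and the gene did not pass, with a log2 fold change of -0.31 ± 0.09 (SE, adjusted p = 0.74 by limma). Dlg4, which encodes the scaffold PSD-95, was at -0.11 ± 0.05 (SE), also without overlap (adjusted p = 0.95 by limma). Rgs10 and Dlg4 were likewise named for the smallest p of their list, beside the 10.5% of all genes tested without overlap.

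**Figure D5:**
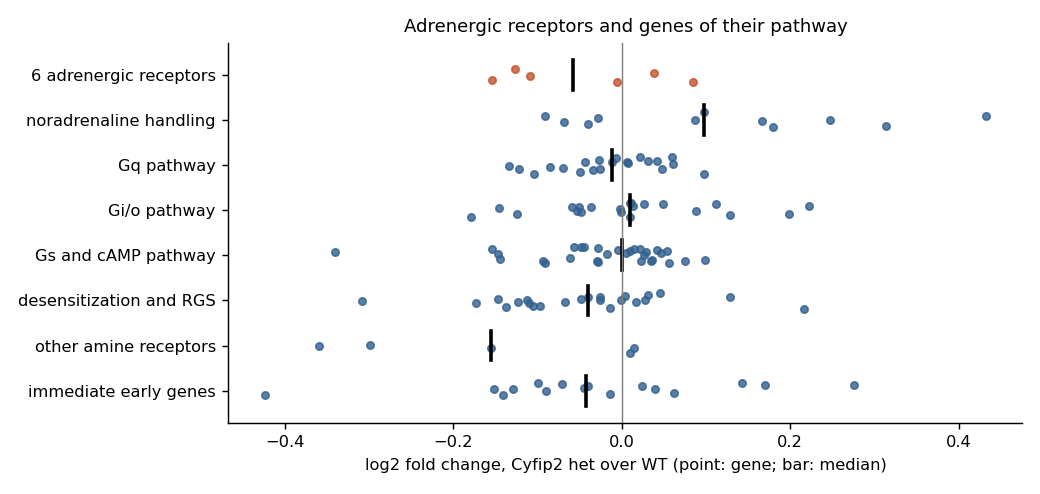
Log2 fold change, Cyfip2 het over WT (horizontal axis), of the 6 adrenergic receptor genes (top row) and of the tested genes of 7 pathway lists; each point is a gene and each bar a list's median. The receptors lie between -0.15 and 0.08 with a median of -0.06, and no gene shown passed an adjusted p of 0.05.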

How the data were processed

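RNA was sequenced from 6 prefrontal cortex samples after library preparation with the TruSeq Stranded mRNA kit, per the labels' protocols, which marks strand and selects poly(A) RNA. The submitters' processing notes name DESeq2 1.19.11, Salmon 0.11.2, R 3.6.0 and build GRCm38 without their roles. The values deposited by the authors are a normalized signal per gene (normalized counts, not raw counts). The sources used here name no annotation release or gene filter. Low values fell on whole reads for 77.9% to 84.6% of values near 1 or 2 reads, but for 21.0% to 43.5% of those near 10 to 20 reads (tolerance 0.1 reads). Reads were therefore not recovered, no count model was used, and implied reads are estimates from the most common step.

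Tests used limma-trend (limma 3.58.1, R 4.3.3) on log2(value + 1), with genotype as the term, for genes with a mean of at least 10, with Benjamini-Hochberg adjustment over all 15151 genes and a threshold of 0.05. As the table holds normalized values, edgeR was not used, although the design allowed for it. Fold changes on the log2(value + 1) scale are too small for low genes. The procedure was tested on simulated data in which all genes shared the same setting for spread beyond counting. The genes here differ in spread, so that test does not show which changes could be detected in these data. Symbols matched 18122 of 18160 identifiers. Lengths and positions are from GENCODE M21 (GRCm38). Sequence alignment used Biopython 1.88. No pair of samples of 1 genotype shared an identical value above 0 in any gene, and the mean chi-square per gene was 8.51 to 22.8.

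The members and lists were chosen with earlier results of these data known. Named were the members, Cyfip2, the 2 genes with the smallest p in each pathway list, the tested noradrenaline-handling genes and the 2 genes most like each member, except 2 genes that are not reported here. Slc17a7, Slc6a2, Dbh and Adra2b were named to describe the tissue and the family, and Adrb3 and Foxp2 after their values were seen. Alternatives were another scaling, filters, pseudocounts, variance models, a replicate block, a threshold of 0.1, other gene lengths and leaving out each sample. Slc18a2, Pde2a, Drd3 and Taar1 were not analysed here.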

Additional observations from a re-analysis of the deposited data

How the results depend on the processing

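No receptor passed the threshold under any of the 14 alternatives or at a threshold of 0.1, and the adjusted p stayed between 0.60 and 1.00. Leaving out each sample in turn gave log2 fold changes of -0.097 to 0.094 for Adra1a, -0.22 to -0.08 for Adra1b, -0.19 to -0.08 for Adra1d, 0.0064 to 0.07 for Adra2a, 0.04 to 0.13 for Adra2c and -0.24 to 0.061 for Adrb1. Signs turned for Adra1a without het sample 1 (0.094) and without WT sample 2 (0.019), and for Adrb1 without WT sample 3 (0.061). Over the same omissions signs also turned for Elk4 (-0.21 to 0.078), Zfp36l2 (-0.26 to 0.018), Ighm (-0.090 to 0.11), mt-Co2 (-0.095 to 0.094), Nr4a3 (-0.023 to 0.54) and Slc29a4 (-0.25 to 0.13), and for the medians of the further amine receptors (-0.27 to 0.024), the Gi/o pathway (-0.043 to 0.041), the Gs and cAMP pathway (-0.033 to 0.013) and the immediate early genes (-0.26 to 0.17). The median of the noradrenaline-handling genes ran from 0.063 to 0.16. Of 34 further genes that the naming rule gives, 25 moved by over 1.5 times when 1 sample was left out, Ddc (0.13 to 0.56) and Slc22a2 (0.19 to 0.58) among them. Genes called over the whole table numbered 1 to 4 over the omissions, 1 at a mean of at least 50 and 1 without the trend, against 2 as reported. Per kb, Adra1a stood at 122 with the longest transcript and, with the median coding transcript, Adra1a stood at 127, Adra1b at 305 and Adra2a at 94.8. The cause of these shifts was not tested, except that the per kb levels follow from the length used. Same-numbered het and WT samples did not deviate together in all pairs (correlations of 0.13, 0.12 and -0.0052), and het sample 3 did not correlate best with its own number. With the sample number as a replicate block, 2 genes were called over the whole table and 0 receptors. With 3 samples a genotype, the 95% intervals of the 6 receptors together ran from 73.4% of the WT level (lower end, Adrb1) to 119% (upper end, Adra2c). Each interval lies around its own estimate, and that of Adra2a ran from 90.5% to 117%.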
